A study of Caenorhabditis elegans with 2 samples.

Results

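The genes examined were those of the splicing machinery whose *Caenorhabditis elegans* names begin with *snr-*, *prp-*, *mog-*, *rsp-*, *sap-*, *uaf-* or *rnp-*, set against chromatin precipitated with EGL-18, a GATA-type transcription factor. They were taken by name from the protein-coding genes of the annotation, by a rule that uses no measured value but was set with earlier results of these data known, and numbered 47 of 19973. By prefix there were 7 *snr-*, 13 *prp-*, 6 *mog-*, 8 *rsp-*, 2 *sap-*, 2 *uaf-* and 9 *rnp-* genes. The names do not mark one function throughout. RNP-4 is a protein of the exon junction complex, which is left on spliced RNA, and RNP-8 is known as a cofactor of a germline poly(A) polymerase, while most of the others are known spliceosome or SR proteins.

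Pre-mRNA splicing is carried out by the spliceosome, which is built on each intron from small nuclear ribonucleoproteins (snRNPs) and many further proteins. The Sm proteins encoded by *snr-* genes form a ring on the spliceosomal RNAs, U2AF recognises the 3′ splice site, SR proteins bind exons and help to recruit snRNPs, and RNA helicases of the DEAH type remodel the complex as it acts. In worms, loss of the *mog* genes masculinises the germline, since the switch from sperm to oocytes fails, and EGL-18 is known for its part in epidermal seam cells and the vulva.

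The data were 8 lists of chromatin immunoprecipitation peaks from 1 group of 2 biological replicates. The worms were whole young adults of strain RW12252, aged 63 h after synchronisation as L1 larvae starved after bleaching, with a TY1::EGFP::3xFLAG tag inserted by CRISPR at *egl-18*, and the fusion protein was precipitated with an antibody against GFP from chromatin sonicated to 200 to 800 bp. All animals carried the tag, no control list was analysed here, and a signal from whole worms cannot be assigned to a tissue. Depth is unknown, since peak lists hold no read counts, and with 1 group there is no contrast between conditions and no test.

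For each gene the promoter window ran from 1000 bp upstream to 200 bp downstream of any start of a protein-coding transcript, and a peak counted when its summit lay inside. Ranked lists hold all candidate peaks, 117695 for the series, 64911 for replicate 1 and 54253 for replicate 2. Thresholded lists hold those that passed the authors' criterion of reproducibility, 699, 199 and 232. Signal is the authors' peak height, whose scale is not stated, and was compared within a list only. Each gene was therefore also given a percentile among all 19973 genes of that list, with genes lacking a peak set to 0 and ties sharing a middle rank. The score of a peak is a rescaled irreproducible discovery rate (IDR) with a ceiling of 1000, and 830 corresponds to an IDR of 0.01.

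Peaks of the series thresholded list lay in the promoter windows of 5 of the 47 splicing genes, *mog-4*, *snr-4*, *rsp-8*, *rsp-1* and *rsp-2*. That is 10.6% of them (exact 95% interval 3.55% to 23.1%), beside 1.87% of all protein-coding genes. The interval covers the number of genes only, and *rsp-1* and *rsp-2* share a single peak, so that 4 peaks stand behind the 5 genes. In the thresholded list of replicate 1 there was 1 splicing gene, *mog-4* (2.13%, beside 0.546% of all genes). In that of replicate 2 there were 2, *mog-4* and *snr-4* (4.26%, beside 0.751%). The 3 *rsp-* genes were in the thresholded list of neither replicate alone. When summits within 150 bp of a tRNA, snoRNA or snRNA gene were left out, 4 splicing genes remained (8.51%, beside 1.67%), and the gene lost was *snr-4*.

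The DNA under these 4 peaks is shown for the 151 bp centred on each summit, because the results below on short sequence words rest on it. The fifth sequence is from *mog-3*, the splicing gene with the highest signal outside the thresholded list. All are plus strand, 5′ to 3′, of the WBcel235 genome (ce11), in lower case. Capitals mark matches to 4 CG-rich words on either strand, overlapping matches included. These are the word CGCGCA, the word ACGCAG, the word AGCGCG and the word ACGCGC. The positions are chrII:14561822-14561972 for *mog-4*, chrV:11980012-11980162 for *snr-4*, chrIII:11825786-11825936 for *rsp-8*, chrII:11453115-11453265 for *rsp-1* and *rsp-2*, and chrIII:5308393-5308543 for *mog-3*.
mog-4: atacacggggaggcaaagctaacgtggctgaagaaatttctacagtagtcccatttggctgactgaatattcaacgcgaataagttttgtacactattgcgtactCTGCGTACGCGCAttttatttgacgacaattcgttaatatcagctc
snr-4: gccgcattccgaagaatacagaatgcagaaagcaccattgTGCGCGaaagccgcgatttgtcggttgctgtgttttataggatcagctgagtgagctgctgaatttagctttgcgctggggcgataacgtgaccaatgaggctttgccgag
rsp-8: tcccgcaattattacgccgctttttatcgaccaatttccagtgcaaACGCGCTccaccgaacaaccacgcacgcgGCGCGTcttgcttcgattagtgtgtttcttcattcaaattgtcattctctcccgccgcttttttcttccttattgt
rsp-1 and rsp-2: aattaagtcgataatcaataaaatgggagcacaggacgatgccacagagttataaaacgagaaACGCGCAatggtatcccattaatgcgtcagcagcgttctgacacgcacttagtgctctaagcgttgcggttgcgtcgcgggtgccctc
mog-3: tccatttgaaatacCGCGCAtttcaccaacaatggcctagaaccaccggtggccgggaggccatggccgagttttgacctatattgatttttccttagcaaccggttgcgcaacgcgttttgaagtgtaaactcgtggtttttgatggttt
The *mog-4* stretch held 3 matches within 13 adjoining bases, the *rsp-8* stretch 3 in 2 separate runs, the shared *rsp-1* and *rsp-2* stretch 2 that overlap, and the *snr-4* and *mog-3* stretches 1 each. Their GC content ranged from 41.7% at *mog-4* to 51.0% at *snr-4*. None held, on either strand, a GATA word of 6 letters, which is AGATA or else TGATA followed by A or G, the known site of GATA factors.

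The strongest peak was that of *mog-4*, which encodes a DEAH-box RNA helicase of the spliceosome. The gene lies on the minus strand of chromosome II from 14552504 to 14561599, and the summit was 298 bp upstream of its transcript start, between genes. Its signal was 126 in replicate 1, 128 in replicate 2 and 253 in the series list, with a score of 1000 in all 3. These heights placed it at the 99.9 percentile of genes each time, and the peak ranked 20 of 699, 20 of 199 and 22 of 232 in the thresholded lists of the series, replicate 1 and replicate 2. The replicates' summits were 47 and 39 bp from the series summit. It was the only splicing gene of the 47 to pass in both replicates, beside 83 of all 19973 genes.

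The Sm protein gene *snr-4*, which encodes SmD2 of the ring on the spliceosomal RNAs, had the next highest peak. The gene lies on the minus strand of chromosome V from 11978508 to 11979723, with the summit 364 bp upstream. Its signal was 46.6 in replicate 1, 61.7 in replicate 2 and 107 in the series list. Both replicates placed the gene at a high percentile (99.1 and 99.6), but the peak's score was 594 in replicate 1 and 1000 in replicate 2, so that it passed in the second replicate only. The summit lay inside the non-coding RNA gene *C52E4.14* and 31 bp from the snRNA gene *T11F9.15*, and the proteasome gene *rpt-1* ends 447 bp away on the far side. Whether the peak belongs to *snr-4* or to these RNA genes cannot be told apart from a summit position. The nearest tRNA, snoRNA or snRNA gene was at least 31493 bp from the summits at *mog-4*, *rsp-8* and *rsp-1* with *rsp-2*.

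Among the SR proteins, *rsp-8*, whose product is related to the splicing regulator Tra2, had a peak 557 bp upstream on chromosome III (gene 11826418 to 11830974, plus strand). Its signal was 47.3 in replicate 1, 37.4 in replicate 2 and 85.8 in the series, at percentiles 99.1, 98.0 and 99.1. The replicate scores were 690 and 369, and the series score was 1000. A second thresholded peak of the series, with a signal of 34.6 and a score of 1000, lay in an exon of *rsp-8* outside the window at chrIII:11830694-11830969. A peak overlapping it was in the thresholded list of replicate 1, at 37.3, but its summit was 233 bp from the series summit. Another stood at 26.2 in the ranked list of replicate 2, with its summit 11 bp from the series summit.

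The SR protein genes *rsp-1* and *rsp-2* are neighbours on chromosome II, transcribed away from each other, and 1 peak lay between them. Its signal was 35.6 in replicate 1, 35.1 in replicate 2 and 74.0 in the series list, at percentiles 96.4, 97.4 and 98.4. Its score was 339 and 45 in the replicates and 871 in the series. The summit was 235 bp upstream of the *rsp-2* start. From *rsp-1* it was 172 bp from the annotated edge of the gene (11453362 to 11455864) but 784 bp from the nearest start of a coding transcript. Assigning each summit to the nearest start alone therefore left *rsp-2* and removed *rsp-1*.

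**Figure D1:**
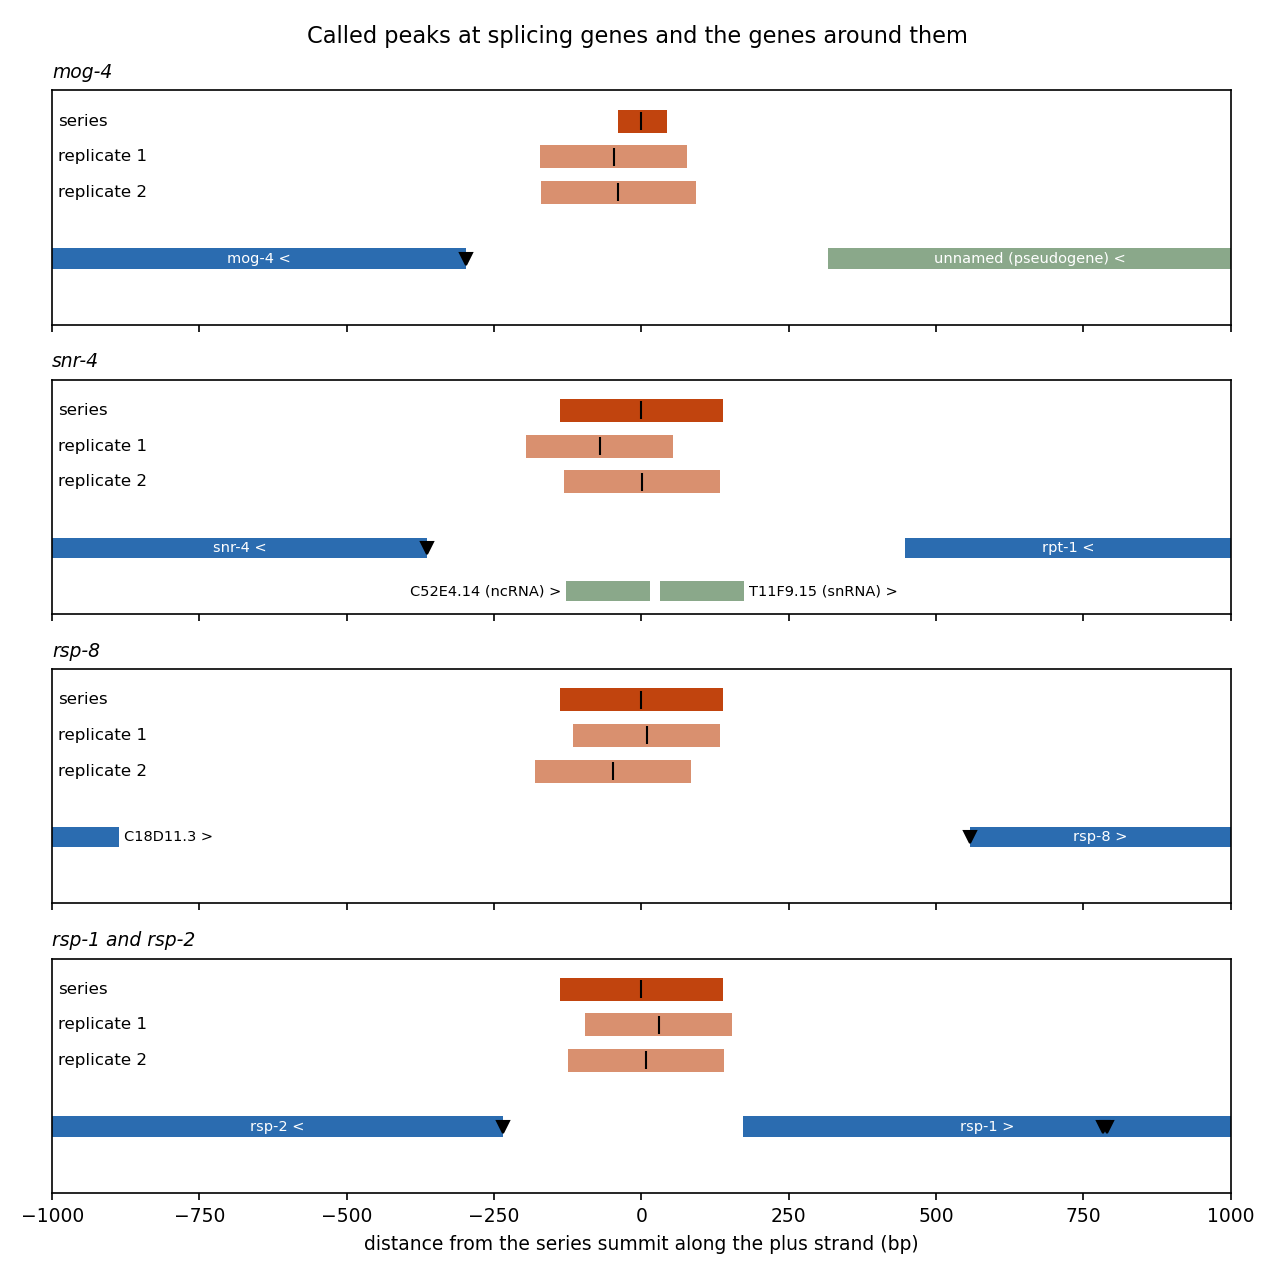
Maps of the 4 called peaks at splicing genes, by distance in bp from the series summit along the plus strand. Dark bars are the series peak and light bars the overlapping peaks of replicates 1 and 2 (vertical ticks: summits), blue boxes are protein-coding genes, green boxes are non-coding genes and pseudogenes, and triangles are starts of protein-coding transcripts of the splicing genes. The replicates' summits lie 1 to 71 bp from the series summits, and only the *snr-4* summit falls inside a non-coding gene.

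Below the threshold the splicing genes formed a continuous series of heights rather than a gap. The first outside was *mog-3*, a homolog of the splicing factor CWC25, with a signal of 45.2 in replicate 1, 27.0 in replicate 2 and 65.1 in the series list, a series score of 611 and a summit 128 bp upstream. The SR protein gene *rsp-6* had 35.0, 27.7 and 59.2, with a score of 772 and a summit 73 bp upstream. Both were in the top 10% of all genes in each replicate, *mog-3* at percentiles 98.9 and 92.0 and *rsp-6* at 96.1 and 92.6. With the criterion relaxed to a score of 540, which corresponds to an IDR of 0.05 and was chosen after the data were seen, these 2 genes joined the other 5. The count was then 7 (14.9%), beside 5.03% of all genes.

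Genes with higher signal were more often in the thresholded list. Over all 19973 genes, 319 had a highest signal at or above that of *rsp-1* and *rsp-2*, and 289 of these (90.6%) were in the thresholded list. In the band from *mog-3* up to *rsp-1* and *rsp-2* there were 194 genes, of which 64 (33.0%) were called. The 5 called splicing genes are also the 5 with the highest signal.

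Weak peaks were common at all genes. Any peak of the series ranked list fell in the windows of 39 splicing genes (83.0%), beside 82.5% of all genes, so that having some peak did not set these genes apart. Their median signal was 30.0, beside 26.8 for all genes, and their median percentile was 58.1 in the series list, 61.4 in replicate 1 and 52.9 in replicate 2. It fell below the middle of all genes, to 42.8, in a window of 500 bp upstream to 100 bp downstream, and to 49.3 when each summit went to the nearest start only. The top of the range was fuller. In the series list 11 splicing genes (23.4%) were in the top 10%, and 8 (17.0%) were in the top 10% of both replicates, beside 3.58% of all genes. Those 8 were *mog-4*, *snr-4*, *rsp-8*, *rsp-1*, *rsp-2*, *mog-3*, *rsp-6* and *prp-19*, whose product is the ubiquitin ligase of the Prp19 complex. The limit of 10% was chosen after the data were seen.

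**Figure D2:**
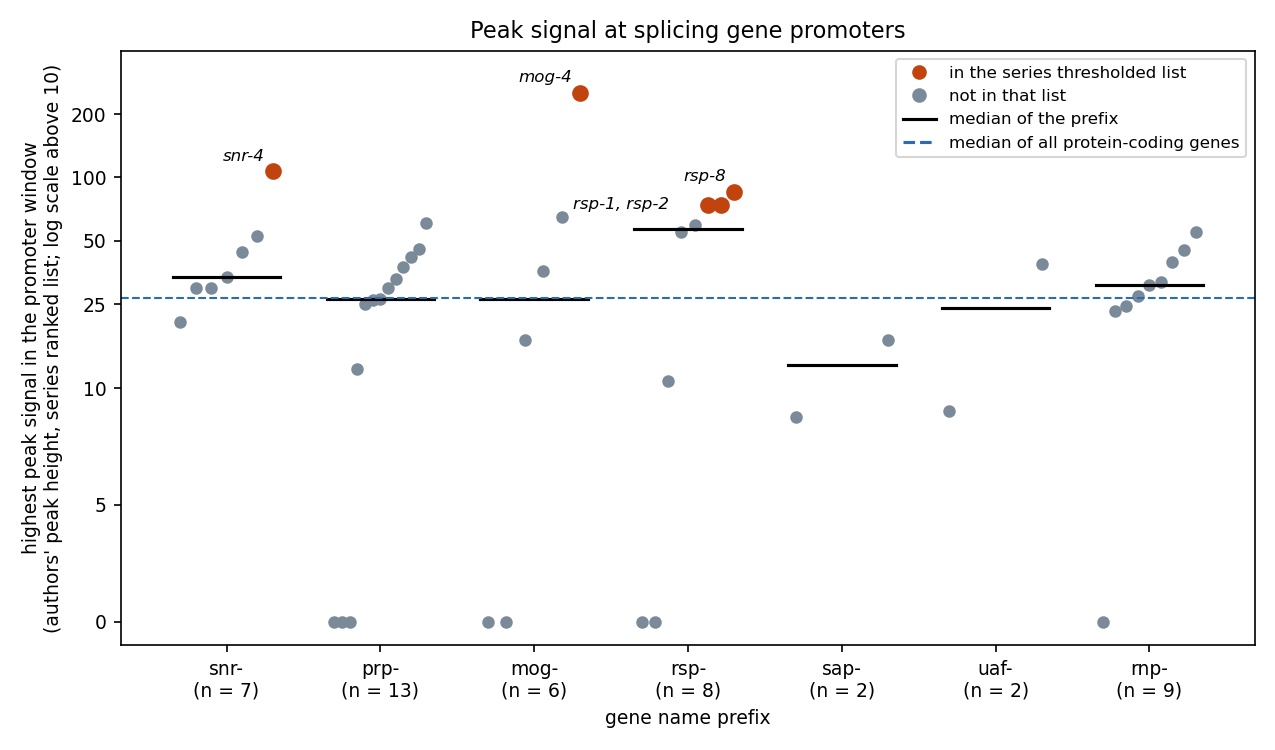
Highest peak signal in the promoter window of each of the 47 splicing genes in the series ranked list (vertical axis, authors' peak height, linear up to 10 and log above), grouped by name prefix. Each point is 1 gene, orange where the gene is in the series thresholded list. Points at 0 are the 8 genes with no summit in the window, and the *rsp-* median (57.0) stands highest while the *prp-* and *mog-* medians (26.4 and 26.5) lie at the median of all genes (26.8).

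The *snr-* genes, for the 7 Sm ring proteins, each had a peak in the series list (beside 82.5% of all genes), from 20.7 at *snr-5* (SmF) to 107 at *snr-4*. The *snr-5* peak had the lowest score of that list, 60, and neither replicate listed a peak in the window of *snr-5*. After *snr-4* came *snr-7* (SmG) at 52.9, with 23.6 in replicate 1 and no peak in replicate 2. *snr-3* (SmD1) reached 44.5 in the series list, with 16.2 in replicate 1 and 35.0 in replicate 2. The percentiles of replicates 1 and 2 were 79.5 and 23.1 for *snr-7* and 56.3 and 97.3 for *snr-3*. At *snr-3* the replicate 1 value is from another peak nearer the start, while the series peak was 664 bp upstream. That series peak lay inside the neighbouring gene *rsp-5*, and its position does not assign it to either gene. The others, *snr-1* (SmD3) at 33.8, *snr-2* (SmB) at 30.0 and *snr-6* (SmE) at 29.7, stood near the middle of all genes. The class had 1 of 7 genes called (14.3%, interval 0.361% to 57.9%, which holds the 1.87% of all genes) and a median percentile of 67.1.

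The *prp-* genes, for snRNP proteins and factors of both catalytic steps, had 0 of 13 called (upper limit 24.7%), beside 1.87% of all genes. Their highest was *prp-8*, which encodes the core U5 protein, with a signal of 41.3 in replicate 1, 19.9 in replicate 2 and 60.7 in the series list, at a score of 496. It was at the 98.3 percentile of replicate 1 but the 76.7 of replicate 2. *prp-19* had 39.3, 25.6 and 45.9, at percentiles 97.9, 90.0 and 87.4. *prp-21*, for a subunit of the U2 factor SF3a, had 27.5, 13.0 and 41.8, with its summit 171 bp downstream of the start. *prp-3*, *prp-6* and *prp-17*, for proteins of the U4/U6 and U5 particles and of the second catalytic step, had no summit in the series window. The remaining 7 lay between 12.3 (*prp-38*) and 37.4 (*prp-18*). The class median was at the 49.0 percentile of the series list, and at 54.2 and 23.1 in replicates 1 and 2, the last being the value of a gene with no peak.

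Of the 6 *mog-* genes, 1 was called (16.7%, interval 0.421% to 64.1%, which holds the 1.87% of all genes), and the class was split. *mog-4* and *mog-3* stood at percentiles 99.9 and 97.4. *mog-5*, another DEAH-box helicase, had 35.9 in the series list, 21.5 in replicate 1 and none in replicate 2. *mog-2*, for a protein of the U2 snRNP, had 17.0 in the series list, 18.3 at another peak in replicate 1 and none in replicate 2. *mog-1*, the third helicase of the group, and *mog-7* had no peak in any of the 3 ranked lists. Genes that share the germline phenotype of this name thus ranged from no listed peak to one of the highest signals of all genes.

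The *rsp-* genes, for SR proteins, had 3 of 8 called (37.5%, interval 8.52% to 75.5%) through 2 peaks, beside 1.87% of all genes. In the thresholded lists of replicates 1 and 2 there were 0 of 8, beside 0.546% and 0.751% of all genes. With a window of 500 bp upstream to 100 bp downstream only *rsp-2* was called, beside 1.27% of all genes. Their median percentile was the highest of the 7 prefixes in each ranked list, at 95.1 in the series list, 92.2 in replicate 1 and 88.1 in replicate 2. Of the 8, 4 were in the top 10% of both replicates, beside 3.58% of all genes. Each of the 8 had a peak in replicate 1, beside 60.1% of all genes, and 6 had one in both replicates, beside 39.3% of all genes. Besides those already given, *rsp-4* had 27.6, 22.4 and 54.8 in replicate 1, replicate 2 and the series list, at percentiles 88.3, 83.5 and 94.2. The rest were low. *rsp-5* had 16.2, 15.9 and 10.8, the replicate 2 value from another peak than the series value. Its replicate 1 peak is the one also counted for *snr-3*. The series peak counted for *snr-3*, at 44.5 (chrII:6490287-6490562), lay inside the *rsp-5* gene (6490165 to 6491340), with its summit outside the *rsp-5* window. The low series value of *rsp-5* thus depends on where the window ends. *rsp-3*, whose product is the worm SF2/ASF, and *rsp-7* had no summit in the series window, none in replicate 2, and 5.01 and 11.3 in replicate 1. The median number of transcript starts was 2.00 for *rsp-* genes and 1.00 for all genes, and the median window length was 1206 and 1201 bp. Of the 3 called genes, *rsp-8* and *rsp-1* had longer windows, 2402 and 1899 bp, and *rsp-2* had 1201 bp. The part of window length in these values was not tested.

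None of the 4 branch-point and 3′ splice site factors was called. *sap-49*, for a subunit of the U2 factor SF3b, and *sap-140*, for a U2-associated protein, had 17.0 and 8.76 in the series list and no peak in either replicate. *uaf-2*, for the small subunit of U2AF, had 28.1 in replicate 1, 26.0 in replicate 2 and 38.9 in the series list, at percentiles 89.0, 90.6 and 77.2. The replicate 2 value is from another peak, 123 bp downstream of a start, whereas the series peak was 654 bp upstream. *uaf-1*, for the large subunit, had 7.84 (another peak), none and 9.03. With 2 genes in each class, 0 called allows a share of up to 84.2%, and 1.87% of all genes were called.

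The *rnp-* genes had 0 of 9 called (upper limit 33.6%), beside 1.87% of all genes, and a median percentile of 59.8. The highest was *rnp-8*, the polymerase cofactor, with 36.8 in replicate 1, 18.3 in replicate 2 and 54.9 in the series list. The series and replicate 1 peaks overlap, with the series summit 816 bp upstream, and the replicate 2 value is from another peak, 192 bp downstream. *rnp-7*, for a U1 snRNP protein, had 17.4, 28.1 and 45.3, the first from another peak than the other values. Replicate 1 ranked *rnp-8* higher (97.0 against 60.1) and replicate 2 ranked *rnp-7* higher (93.1 against 71.8). *rnp-1* had 39.8 in the series list, *rnp-5* 31.8, and *rnp-2* and *rnp-3*, for related RNA-binding proteins of the U1 and U2 snRNPs, 23.1 and 30.7. *rnp-9* had 24.5 and *rnp-4* 27.5, and *rnp-6*, a relative of the human factor PUF60, had no peak in any of the 3 ranked lists.

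**Figure D3:**
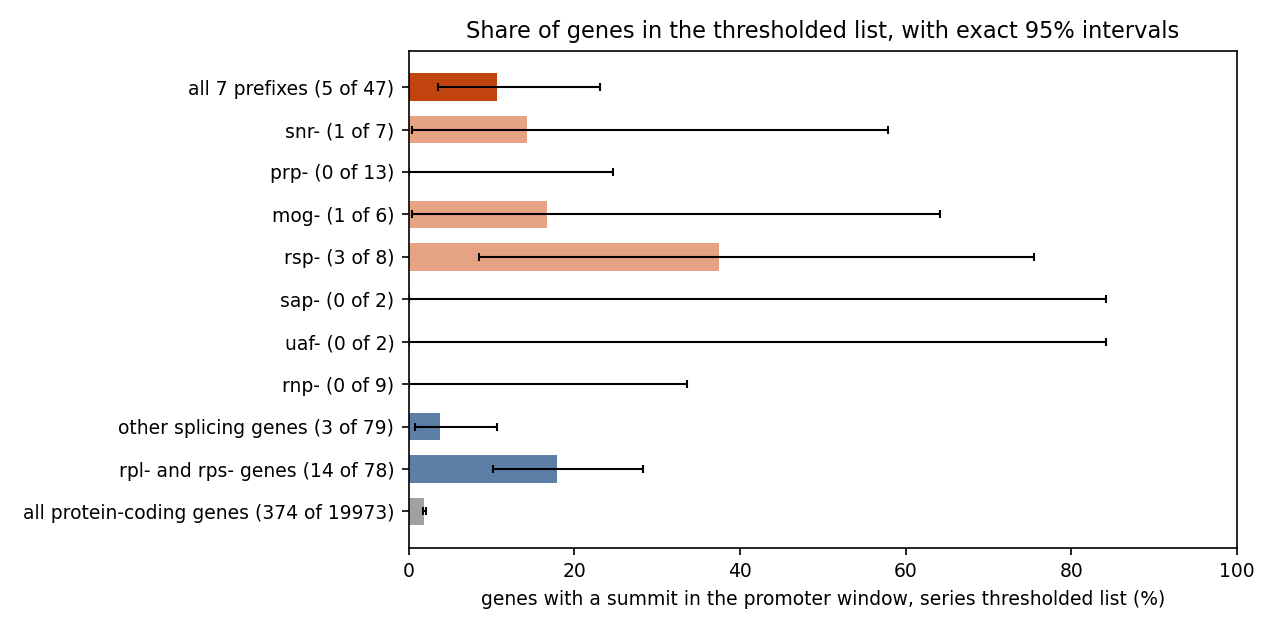
Share of genes with a summit of the series thresholded list in the promoter window (horizontal axis, %), with exact 95% intervals as lines, for the 47 splicing genes, each prefix, splicing genes of other names, ribosomal protein genes and all protein-coding genes. The *rsp-* bar is the longest (37.5%), and the intervals of the 7 prefixes overlap each other.

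The intervals of the 7 prefixes overlap throughout and no difference between their shares was tested, so the prefixes are not ranked by share here. Splicing genes of other names were a hand-written list of 85, of which 79 were in the annotation. They had 3 called (3.80%, interval 0.790% to 10.7%), and the interval holds the 1.87% of all genes. These were *cyn-10*, for a cyclophilin, *plrg-1*, for a protein of the Prp19 complex, and *snrp-40.1*, for a U5 protein, with series scores of 977, 912 and 923. None of the 79 was in the thresholded list of either replicate, beside 0.546% and 0.751% of all genes in replicates 1 and 2. Their median percentile was 60.8, beside 58.1 for the 47. The intervals of the 47 and the 79 genes overlap, and the difference between their shares was not tested. Genes for ribosomal proteins (*rpl-* and *rps-*), another large class compared here, had 14 of 78 called (17.9%, interval 10.2% to 28.3%) and a median percentile of 79.2.

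**Figure D4:**
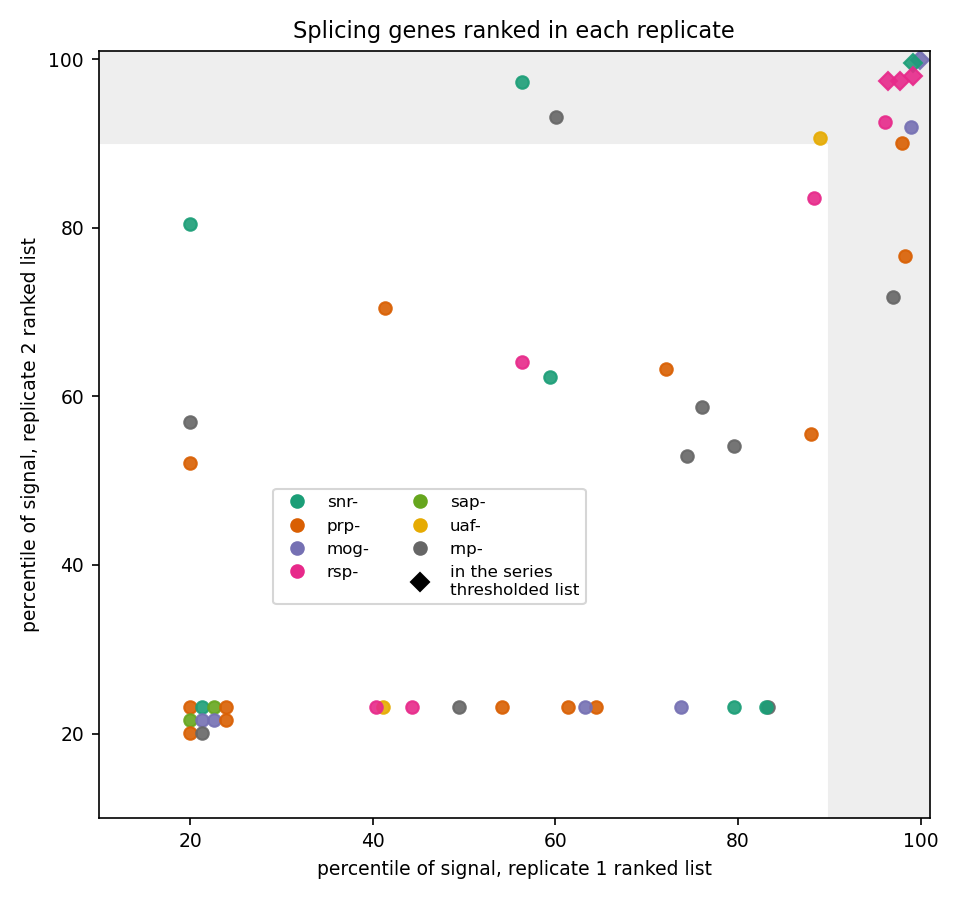
Percentile of each splicing gene among all protein-coding genes by its highest peak signal in the ranked list of replicate 1 (horizontal axis) and replicate 2 (vertical axis). Colours are prefixes, diamonds are genes in the series thresholded list and shading is the top 10%; genes without a peak in a replicate sit at 20.0 or 23.1, and tied genes are moved slightly apart. The 5 called genes lie in the upper right corner with *mog-3*, *rsp-6* and *prp-19*.

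Across the 47 genes, Spearman's rho between the signals of the replicates was 0.66, beside 0.39 across all 19973 genes. This is a description across genes, which share the 2 libraries and are not replicates. Among the 22 splicing genes with a peak in both replicates it was 0.57, beside 0.32 for 7852 genes. A gene's highest peaks in the lists need not be one peak. Among these 22 genes, both replicates' peaks overlapped the series peak in 14 (63.6%, beside 55.1% of 7769 genes with a peak in all 3 lists), which include the 5 called genes, *mog-3*, *rsp-6* and *prp-19*, and 8 had another peak in a replicate. Of the other 25 genes, 12 had a peak in replicate 1 only (25.5% of the 47, beside 20.7% of all genes). Another 3 had one in replicate 2 only, beside 2878 of all 19973 genes, and 10 had one in neither (21.3%, beside 25.5%). The plot of percentiles by replicate shows a row of genes that replicate 2 lists without a peak and that replicate 1 spreads from the 40.4 to the 83.3 percentile.

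The summits at splicing genes lay upstream of the start more often than not, but the window itself is mostly upstream (1000 bp against 200 bp). How much of an upstream majority and of the median position comes from the window was not tested. Of the 39 genes with a peak, 35 had their highest summit upstream (89.7%, beside 80.4% of all genes with a peak). The median position was 364 bp upstream, beside 360.0 bp. Within 250 bp of the start there were 12 (30.8%, beside 41.0%). The called peaks, at 235 to 784 bp upstream, were within the range of the others.

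The share of splicing gene promoters with a GATA word differed from that of all promoters by less than its counting interval. The promoters from 250 bp upstream to 50 bp downstream held one of these words on either strand in 23 of 47 genes (48.9%, interval 34.1% to 63.9%), beside 54.5% of all protein-coding genes. Within 75 bp of the summit none of the 4 called peaks had one (upper limit 60.2%), beside 108 of all 699 peaks (15.5%). The bare core GATA was present in all 4 (lower limit 39.8%) and in 46.1% of the 699. Among the 38 distinct highest peaks of the splicing genes in the ranked list, 7 had a GATA word (18.4%), beside 27.0% of 15057 such peaks of all genes, and 17 had the core (44.7%), beside 59.7%. In the promoters the core was in 80.9%, beside 86.6%.

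The CG-rich words had been picked out on these same peaks. They were within 75 bp of all 4 called summits, as the sequences of *mog-4*, *snr-4*, *rsp-8* and *rsp-1* with *rsp-2* show, beside 263 of 699 peaks (37.6%). The median GC content was 48.3% in both sets. Because the words were chosen on these peaks, this lends no independent weight. Of the 34 highest peaks of splicing genes outside the thresholded list, 10 held one (29.4%, interval 15.1% to 47.5%), beside 11.6% of 14762 such peaks of all genes. In the whole window of 1000 bp upstream to 200 bp downstream, 32 splicing genes (68.1%) held one, beside 46.0% of all genes. In the shorter promoter 11 held one (23.4%), and the interval of 12.3% to 38.0% holds the 18.5% of all genes. The median GC content was 36.6% in the whole windows of splicing genes and 34.9% in all windows, and 43.4% and 39.1% around the highest peaks outside the thresholded list. In the shorter promoter it was 33.3% and 34.3%. Its part in these shares was not tested.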

How the data were processed

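Peak lists were deposited on assembly ce11 and were used as the authors made them. Aligner, peak caller, versions and settings were not given in the sources used here. Per the file headers, each replicate's lists come from that replicate alone and the series lists from both. Of the deposited columns, the authors' signal is a peak height and the authors' score a rescaled IDR. The series thresholded list derives from 1 more file than the ranked list, which was not used here. Genes came from Ensembl release 115 and sequence from RefSeq, both WBcel235, and no peak ended beyond a chromosome. Shares have exact Clopper-Pearson 95% intervals, which cover the number of genes only. No test was run, as there is 1 group. The assignment of summits was checked on simulated peaks. Named genes were the members in any thresholded list, the 15 with the highest series signal, the highest and lowest of each prefix, genes sharing a peak and called genes of the other splicing list, and other members were added to account for each class. The members, gene lists and sequence words were chosen with earlier results of these data known. Alternatives covered the window, summit rule, lists, score limit, RNA genes and each replicate alone. Tables were handled with pandas 2.3.3 and numpy 2.4.6 under Python 3.11.15, intervals and correlations came from scipy 1.17.1, and figures from matplotlib 3.10.9.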

Additional observations from a re-analysis of the deposited data

How the results depend on the processing

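Of 51 alternatives over 6 results, 17 moved the value and 34 did not, counting as moved a count that changed by over 1.5 times, a median percentile by over 5.97 (the SD of the replicates' medians), a rho by over 0.1 or a GATA share outside its interval. The replicates' own medians are among the alternatives that did not move, and for them the limit of 5.97 is not independent. The 5 called genes became 3 in a window of 500 bp upstream to 100 bp downstream (*mog-4*, *rsp-2* and *snr-4*, 6.38% beside 1.27% of all genes) and 3 at a score of 1000 only (*mog-4*, *rsp-8* and *snr-4*, beside 1.10% of all genes). With 1 replicate alone the count was 1 to 2, from 1 to 2 prefixes rather than 3, and the share of all genes fell too. Without replicate 2 it was *mog-4* (2.13%, beside 0.546% of all genes). Without replicate 1 it was *mog-4* and *snr-4* (4.26%, beside 0.751%). The 3 called splicing genes of other names became 0 at a score of 1000 (beside 1.10% of all genes). In replicates 1 and 2 alone they also became 0, beside 0.546% and 0.751% of all genes. The median percentile of 58.1 was 42.8 in the shorter window and 49.3 with the nearest start only. The rho of 0.66 was 0.54 as Pearson's r of log2(signal + 1), 0.45 in the shorter window and 0.89 over the 5 called genes. The last value carries no weight, since those genes had passed a criterion of reproducibility and *rsp-1* and *rsp-2* share 1 peak. The GATA share of 48.9% was 93.6% in promoters of 1000 bp upstream to 200 bp downstream (93.3% of all genes), 80.9% for the core alone, and 0% of the called peaks within 75 or 150 bp. The conservative list held the same 5 genes, beside 1.60% of all genes. Depth is unknown, so a missing peak does not show that nothing was bound. No paired analysis was possible because there is 1 group.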

Other observations

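Thresholded peaks of the series also lay within 5000 bp of 7 splicing genes but outside their windows, as 8 distinct peaks. That is 14.9% of the 47, beside 7.31% of all protein-coding genes counted the same way. The SR protein gene *rsp-3*, which had no series summit at its promoter, had one 16 bp past its 3′ end, in an exon of *elpc-2*, with a signal of 29.6 in replicate 1, 42.7 in replicate 2 and 71.4 in the series list. The Sm protein gene *snr-2* had one 2096 bp upstream of the gene, between genes, with 54.9, 30.0 and 91.9, which was in the thresholded list of replicate 1. For *prp-38* the nearest lay 2068 bp upstream and is the promoter peak of *plrg-1*, itself a splicing gene, with 47.3 in replicate 1, 32.8 in replicate 2 and a series score of 912.

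*rsp-5* and *snr-3* are near 2 peaks at *T28D9.1* and *T28D9.11*, with series signals of 77.8 and 64.6. *sap-140*, whose own window held only a signal of 8.76, had peaks 4605 and 4052 bp upstream with 92.1 and 82.9, the second in an exon of *cgh-1*. The distances alone do not assign any of these peaks to a splicing gene.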
